A study of Mus musculus with 6 samples.

Results

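The genes described here are 10 genes of brown and beige fat: *Ucp1*, *Cidea*, *Ppargc1a*, *Dio2*, *Prdm16*, *Adrb3*, *Elovl3*, *Cox8b*, *Cox7a1* and *Ebf2*. They were taken by symbol, as established genes of heat-producing fat, a theme chosen with earlier results of these tumors known. Of the 10, 9 were found among the 20076 genes with a value in this series. *Elovl3*, an elongase of very long chain fatty acids, was not analysed here. All 9 reached a value of 1 in 3 or more tumors, the limit for testing, as did 19667 genes in total.

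Brown and beige adipocytes burn fat to make heat. Noradrenaline released by sympathetic nerves acts on the receptor encoded by *Adrb3*, cyclic AMP rises, protein kinase A is activated, and fatty acids released from lipid droplets activate UCP1, which lets protons leak across the inner mitochondrial membrane. The identity of these cells is set by transcription regulators such as PRDM16 and EBF2, while PGC-1α, encoded by *Ppargc1a*, drives the making of mitochondria. White adipocytes share the lipid machinery of brown and beige cells but normally carry little or no UCP1, and beige cells can arise within white fat depots, including those of the abdomen.

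RNA came from 6 primary tumors, 3 grown in wild-type (WT) mice and 3 in *Tgm2* knockout mice, 6 weeks after injection of ID8 *Trp53-/- Brca1-/-* cells under the bursa of the ovary. ID8 is a line of mouse ovarian surface epithelium, here with *Trp53* and *Brca1* disrupted by CRISPR-Cas9, and mice of both genotypes received these same cells. The paper names C57BL/6 for the WT mice and states no separate strain for the knockout line, which came from another laboratory. It gives an age of 6 to 10 weeks for all experimental mice, without saying at which step. Only the host lacked *Tgm2*, which encodes transglutaminase 2, so the injected cells of both groups could still make it. The paper describes these injections as bilateral. The samples are labelled as cancer cells but are pieces of whole tumor, with ovary, fat and stroma in unknown amounts. Each was taken as coming from 1 mouse, which the labels give only through the replicate number. Values are normalized counts, which are estimated read counts divided by a size factor of the tumor. Per tumor they summed to 34801694, 35325875 and 33916288 in WT and 32316613, 35827822 and 37717165 in knockout hosts, here and throughout given as tumors 1, 2 and 3 of each group. A single read was worth 0.945 to 1.08 normalized counts, so that values below about 3.23, the worth of 3 reads in the tumor where it was highest, are near the limit of detection. *Tgm2* itself was at 14978, 12155 and 13180 normalized counts in WT hosts and at 5853, 6072 and 8157 in knockout hosts. Every knockout tumor was below every WT tumor, with a log2 fold change of -1.02 (SE 0.22; limma, Benjamini-Hochberg adjusted p = 0.391).

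The question for the fat genes was whether their RNA differed between tumors of WT and *Tgm2* knockout hosts. None of the 9 genes passed the limits of an adjusted p of 0.05 and a log2 fold change of 1 (limma with Benjamini-Hochberg adjustment over all 19667 genes), which 0.102% of all tested genes passed as higher and 0% as lower in knockout hosts. The adjusted p-values of the 9 genes lay between 0.759 and 0.976. *Ppargc1a* and *Adrb3* were the only members in which every knockout tumor lay above every WT tumor, against 5.18% of all tested genes, and no member showed the reverse, against 5.33%. These 2 genes were also the 2 with an unadjusted p below 0.05, a limit that 3.4% of all tested genes passed as higher and 2.38% as lower. In the other 7 genes the groups overlapped. Since the RNA is of whole tumors, a difference in the number of fat cells and in RNA per fat cell cannot be told apart. The median log2 fold change of the 9 genes was 1.03, beside -0.027 for all tested genes, and 7 of the 9 had a fold change above 0, as did 47.3% of all tested genes. The median rested on knockout tumor 2, since without it the value was 0.015, while leaving out any other tumor gave 0.88 to 1.40.

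**Figure D1:**
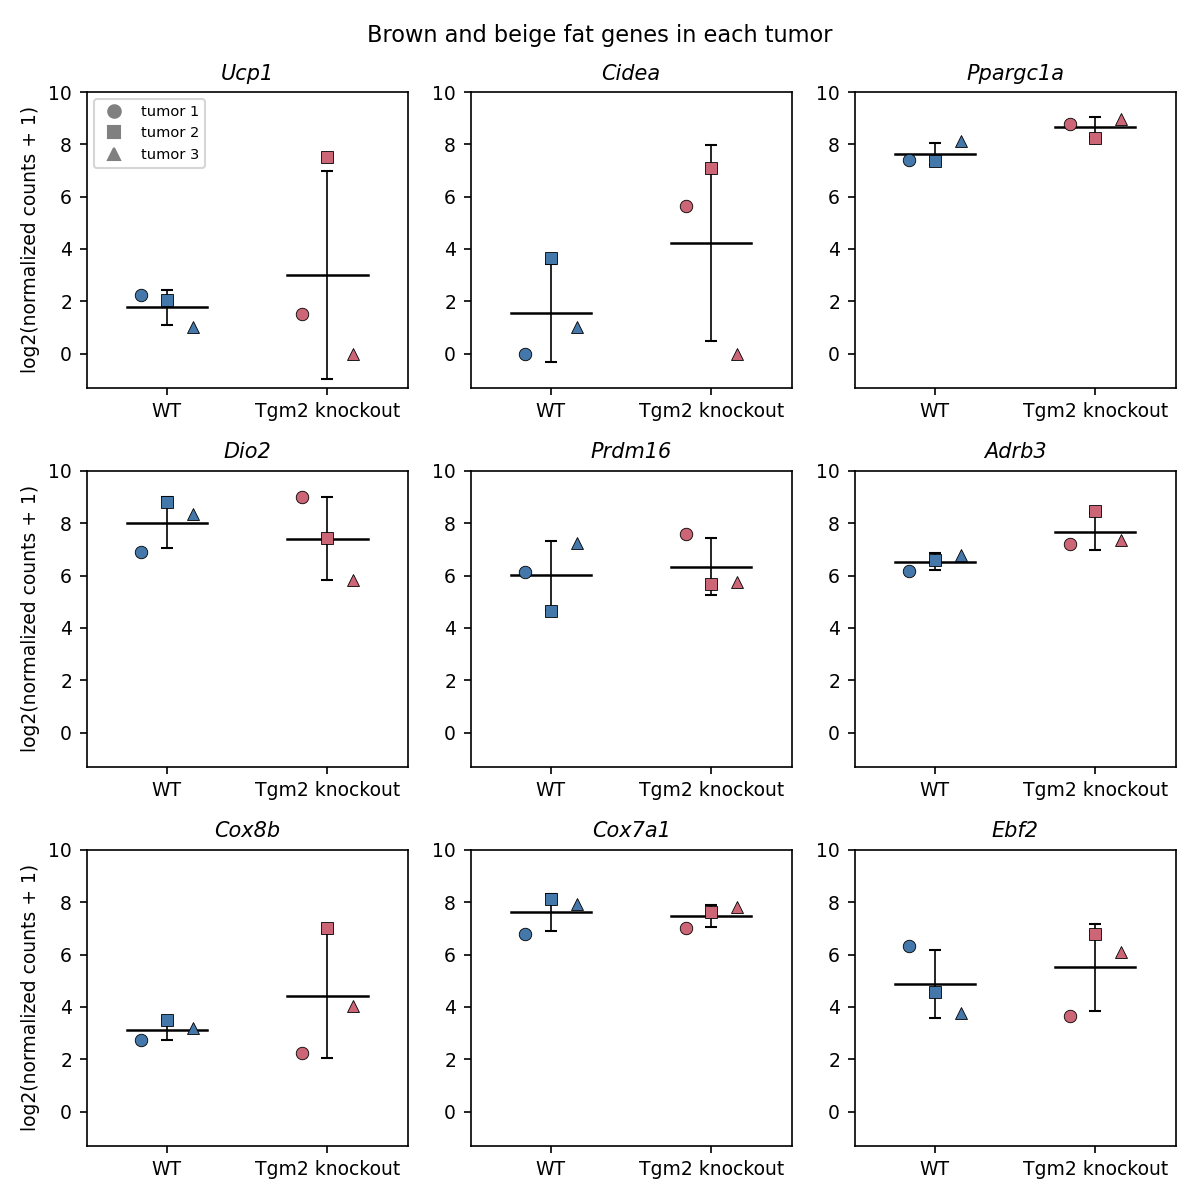
Each panel plots 1 gene, with log2(normalized counts + 1) on the vertical axis, 3 WT tumors in blue and 3 *Tgm2* knockout tumors in red; symbols mark the tumor number within its group, horizontal bars the mean and error bars the SD. *Ucp1*, *Cidea* and *Cox8b* spread widely in the knockout group with tumor 2 at the top, while the knockout points of *Ppargc1a* and *Adrb3* lie above all WT points.

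The start regions of 4 of the genes are shown because cyclic AMP, the signal made downstream of *Adrb3*, is read at DNA by CREB-type factors, and because these genes fell into different patterns between tumors: *Ucp1* and *Cox8b* were high in knockout tumor 2, *Ppargc1a* was higher in every knockout tumor, and *Dio2* ran lowest in knockout tumor 3. Each sequence is the 250 bases before the start of the RefSeq gene on GRCm38.p6, read 5′ to 3′ along the gene, and capitals mark the letters TGACGTCA, the cyclic AMP response element, or its shorter core TGACG on either strand, where they occur. The *Ucp1* sequence is chr8:83290098-83290347 on the plus strand, *Ppargc1a* is chr5:51567726-51567975, *Dio2* is chr12:90739039-90739288 and *Cox8b* is chr7:140900447-140900696, all 3 on the minus strand.
Ucp1: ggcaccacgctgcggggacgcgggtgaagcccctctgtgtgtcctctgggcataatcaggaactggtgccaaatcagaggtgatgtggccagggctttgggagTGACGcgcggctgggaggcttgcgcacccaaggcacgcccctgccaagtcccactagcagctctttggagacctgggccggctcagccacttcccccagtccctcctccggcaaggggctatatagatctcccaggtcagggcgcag
Ppargc1a: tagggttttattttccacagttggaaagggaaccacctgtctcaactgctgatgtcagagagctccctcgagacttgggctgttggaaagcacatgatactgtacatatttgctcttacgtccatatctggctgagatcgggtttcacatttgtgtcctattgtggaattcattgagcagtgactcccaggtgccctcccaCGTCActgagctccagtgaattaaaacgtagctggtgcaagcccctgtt
Dio2: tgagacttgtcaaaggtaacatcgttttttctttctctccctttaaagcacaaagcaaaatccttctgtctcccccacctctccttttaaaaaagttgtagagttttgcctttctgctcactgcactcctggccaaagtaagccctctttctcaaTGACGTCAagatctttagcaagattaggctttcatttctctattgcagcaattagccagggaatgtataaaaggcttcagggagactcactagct
Cox8b: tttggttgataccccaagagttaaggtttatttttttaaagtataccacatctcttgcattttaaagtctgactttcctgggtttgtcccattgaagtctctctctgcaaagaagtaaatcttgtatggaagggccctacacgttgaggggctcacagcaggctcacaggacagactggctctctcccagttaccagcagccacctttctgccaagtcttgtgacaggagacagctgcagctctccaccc

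The whole element TGACGTCA occurred in *Dio2*, with its first base at position -95 and its last at -88 counted back from the RefSeq start. The gene span given below for *Dio2* comes from GENCODE and ends at 90738438, so it places the start farther downstream than RefSeq does. It occurred in 1.55% of the 32851 RefSeq regions of this length. The core TGACG, which the whole element contains, occurred in *Ucp1* at -147 to -143 and, on the opposite strand, in *Ppargc1a* at -49 to -45, and in 17.8% of all regions. The *Cox8b* region held neither, nor did those of *Prdm16* and *Cox7a1*, which are not shown. None of the 6 regions held the consensus motif of the ERR factors (TCAAGGTCA), the EBF factors or the PPAR factors on either strand, which occurred in 0.387%, 0.779% and 0.0335% of all regions. The match of letters is a description of these windows only, and enhancers farther away, such as that known upstream of *Ucp1*, were not examined.

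Among the genes that carry out heat production, *Ucp1* encodes the uncoupling protein that defines brown and beige cells. It lies on chromosome 8 from 83290352 to 83298452 on the plus strand of GRCm38 and has 1 annotated transcript, none of whose 31-base words occurs in another gene. It was at 3.79, 3.13 and 1.02 normalized counts in WT hosts, or 4, 3 and 1 reads, and at 1.90, 183 and 0 in knockout hosts, or 2, 186 and 0 reads. Knockout tumor 2 alone carried *Ucp1* at more than a few reads, 48.3-fold above the next tumor, while knockout tumor 1 lay within the WT range and knockout tumor 3 had no read. This tumor held 94.9% of the *Ucp1* summed over all 6. Its log2 fold change of 1.25 (SE 1.73; limma, adjusted p = 0.934) turned to -1.005 without knockout tumor 2, and was 0.46 with a pseudocount of 0.1 in place of 1.

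*Cidea*, on chromosome 18, encodes a lipid droplet protein abundant in brown and beige cells. Its values were 0, 11.4 and 1.02 normalized counts in WT hosts and 49.2, 135 and 0 in knockout hosts. Knockout tumors 1 and 2 were above every WT tumor, while knockout tumor 3 and WT tumor 1 had no read. At 2.69, its log2 fold change was the largest of the 9 genes and had an SE of 1.79 (limma, adjusted p = 0.892). Without knockout tumor 3 it was 4.82, with an unadjusted p of 0.00366 and an adjusted p of 0.431 by limma, and without knockout tumor 2 it was 1.28, with an unadjusted p of 0.497.

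*Cox8b* encodes the form of cytochrome c oxidase subunit 8 found in brown fat and in heart and skeletal muscle of the mouse, and lies on chromosome 7 from 140898945 to 140900446 on the minus strand. Its values were 5.61, 10.2 and 8.20 normalized counts in WT hosts and 3.75, 128 and 15.6 in knockout hosts. Knockout tumor 2 stood 8.19-fold above knockout tumor 3, the next highest, and knockout tumor 1 was the lowest of all 6. A log2 fold change of 1.30 (SE 1.14; limma, adjusted p = 0.905) became 0.015 without knockout tumor 2.

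*Cox7a1* encodes the heart and muscle form of subunit 7a of the same enzyme, which brown fat also carries, and lies on chromosome 7 from 30184144 to 30186078 on the plus strand. It was at 110.3, 280.1 and 241 normalized counts in WT hosts and at 128, 196 and 227 in knockout hosts. The groups overlapped throughout, tumor 1 was the lowest of each group, and knockout tumor 2 lay in the middle of the range. Its log2 fold change was -0.13 (SE 0.45; limma, adjusted p = 0.976), with a 95% interval from -1.17 to 0.91.

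Of the regulators, *Ppargc1a* encodes the coactivator PGC-1α and lies on chromosome 5 from 51454250 to 51567726 on the minus strand. It was at 166, 166 and 278 normalized counts in WT hosts and at 439, 298 and 499 in knockout hosts. Every knockout tumor was above every WT tumor, knockout tumor 2 lay just above WT tumor 3, and the high *Ucp1* of knockout tumor 2 went with the lowest *Ppargc1a* of its group. Between the groups the log2 fold change was 1.03 (SE 0.35; limma, unadjusted p = 0.0183, adjusted p = 0.759), and the two-sided exact permutation test gave 0.1, the smallest value possible with 3 tumors against 3. Leaving out each tumor in turn gave 0.88 to 1.28, with an unadjusted p by limma of 0.0555 without WT tumor 1, 0.0562 without WT tumor 2, 0.0543 without knockout tumor 1 and 0.0759 without knockout tumor 3.

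*Prdm16* encodes a zinc finger protein that holds brown and beige identity, and lies on chromosome 4 from 154316125 to 154636873 on the minus strand. Its values were 70.0, 24.0 and 151 normalized counts in WT hosts and 193, 50.7 and 52.9 in knockout hosts. Knockout tumor 1 was the highest and WT tumor 2 the lowest, while knockout tumors 2 and 3 lay below WT tumors 1 and 3. Its log2 fold change of 0.33 (SE 0.80; limma, adjusted p = 0.961) turned to -0.35 without WT tumor 2 and to -0.29 without knockout tumor 1.

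*Ebf2* encodes a factor that marks brown and beige precursors and recruits PPARγ to brown fat genes. It lies on chromosome 14 from 67233292 to 67430918 on the plus strand. It was at 79.0, 22.5 and 12.8 normalized counts in WT hosts and at 11.6, 110.0 and 68.0 in knockout hosts. Knockout tumor 2 was the highest and knockout tumor 1 the lowest, so that the knockout group spanned the whole WT range. The log2 fold change of 0.63 (SE 0.98; limma, adjusted p = 0.939) turned to -0.0077 without knockout tumor 2.

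Of the signal genes, *Adrb3* encodes the β3-adrenergic receptor of adipocytes, white ones included, and lies on chromosome 8 from 27225776 to 27250616 on the minus strand. It was at 71.0, 96.4 and 111 normalized counts in WT hosts and at 145, 358 and 165 in knockout hosts. All knockout tumors were above all WT tumors, with knockout tumor 2 the farthest. The log2 fold change was 1.16 (SE 0.46; limma, unadjusted p = 0.0362, adjusted p = 0.819; exact permutation p = 0.1). Without knockout tumor 2 it was 0.75 with an unadjusted p of 0.163 by limma, and without WT tumor 1 or WT tumor 2 that p was 0.101 and 0.0666. Of its 31-base words, 11.2% occur in other genes, nearly all of these in *Gm45470*, a gene on the opposite strand that was not analysed here.

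*Dio2* encodes the deiodinase that activates thyroid hormone within brown fat cells and in other tissues, and lies on chromosome 12 from 90724552 to 90738438 on the minus strand. It was at 120.3, 447 and 326 normalized counts in WT hosts and at 508, 172 and 55.9 in knockout hosts. The highest and the lowest of the 6 tumors were both knockout tumors, and knockout tumor 2 ranked below WT tumors 2 and 3. A log2 fold change of -0.61 (SE 0.80; limma, adjusted p = 0.929) became 0.19 without knockout tumor 3. Exons of *Dio2*, *Prdm16* and *Ebf2* also overlap genes of the opposite strand, and the strand setting of the quantification is not given in the sources used here, so reads of such overlaps cannot be told apart.

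**Figure D2:**
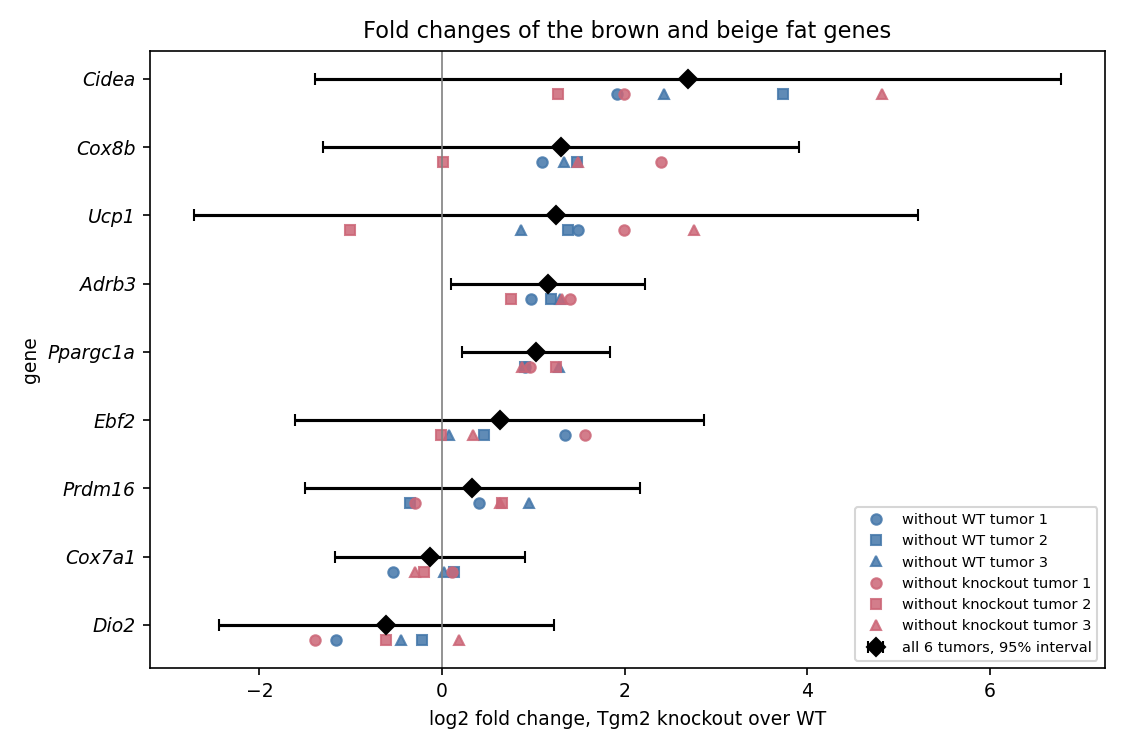
Black diamonds give the log2 fold change of each gene (*Tgm2* knockout over WT, horizontal axis) from all 6 tumors with its 95% interval from limma, and colored symbols the fold change with 1 tumor left out. The intervals of *Ppargc1a* and *Adrb3* lie above 0, those of the other 7 genes include 0, and the fold change of *Ucp1* moved from 1.25 to -1.005 without knockout tumor 2.

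Levels of different genes were compared as normalized counts per 1000 bases of the longest annotated transcript. In the WT tumors *Cox7a1* was the most abundant member at 434 ± 183 (SD, n = 3) per 1000 bases, above the range of every other member. *Dio2* followed at 51.2 ± 28.4, then *Adrb3* at 33.2 ± 7.26, *Ppargc1a* at 31.4 ± 10.005 and *Cox8b* at 22.2 ± 6.41, and these 4 did not differ beyond the spread between tumors from their neighbours in this order. *Prdm16* at 9.51 ± 7.501, *Ebf2* at 7.32 ± 6.86, *Cidea* at 3.73 ± 5.68 and *Ucp1* at 1.62 ± 0.885 were the least abundant. In the knockout group the means were 379 ± 104 for *Cox7a1*, 137 ± 191 for *Cox8b*, 79.6 ± 42.1 for *Adrb3*, 63.8 ± 15.95 for *Ppargc1a*, 55.0 ± 61.1 for *Cidea*, 42.2 ± 40.4 for *Dio2* and 37.6 ± 64.1 for *Ucp1*. *Ebf2* and *Prdm16* came last at 12.1 ± 9.496 and 11.5 ± 9.48. The SDs of *Cox8b*, *Cidea* and *Ucp1* exceeded their means, and each was highest in knockout tumor 2. That tumor had *Cox7a1* at 405, *Cox8b* at 356, *Adrb3* at 128, *Cidea* at 121 and *Ucp1* at 112 per 1000 bases, while *Prdm16* was at 5.89. *Cox8b* thus came close to *Cox7a1* in this tumor, and in WT tumors it stood far below it.

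Knockout tumor 2 had the highest value of 5 of the 9 genes (*Ucp1*, *Cidea*, *Cox8b*, *Adrb3* and *Ebf2*), knockout tumor 1 of *Dio2* and *Prdm16*, knockout tumor 3 of *Ppargc1a*, and WT tumor 2 of *Cox7a1*. Of all tested genes, 12.5% were highest in knockout tumor 2. Among the 13930 tested genes with at least 50 normalized counts in that tumor, 25 were at least 8-fold above every other tumor, 14 of them immunoglobulin genes. This selection was made after the values of knockout tumor 2 were seen, and it describes that tumor only. The other 11 were *Ucp1*, *Cox8b*, *Krt5* (a keratin of basal and squamous epithelium), *Amy2a2*, *Amy2a3*, *Amy2a4* and *Amy2a5* (pancreatic amylases, near-identical copies of which the first 3 have the same values), *Ngp* and *Camp* (granule genes of neutrophil precursors), *Gm9843* and *Gm2446*. In knockout tumor 2 *Krt5* had 85.4 normalized counts, beside 0 to 3.79 elsewhere. *Amy2a5* had 175 there and 0 to 12.9 elsewhere. Among the members, *Cidea* stood 2.73-fold, *Adrb3* 2.17-fold and *Ebf2* 1.39-fold above the next tumor.

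Across the 6 tumors the genes whose log2 values followed *Ucp1* most closely, among 15298 genes that reached 50 normalized counts, were *Aqp1* (Pearson r = 0.977), *Tm9sf2* (0.974), *Krt5* (0.972), *Aqp3* (0.972), *Mtm1* (0.965), *Igkj2* (0.964), *Cfap300* (0.947) and *Ighv1-50* (0.946). None of these 8 is a member or on the lists of thermogenic genes below, and with 6 tumors of which 1 stands apart, r reflects that tumor. Among the members r with *Ucp1* was 0.82 for *Cox8b*, 0.72 for *Cidea*, 0.67 for *Adrb3* and 0.52 for *Ebf2*. It was 0.050 for *Dio2*, -0.062 for *Cox7a1*, -0.19 for *Ppargc1a* and -0.25 for *Prdm16*.

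White adipocyte markers had fold changes in the same direction as most of the 9 genes. Of 25 such markers all 25 had a fold change above 0, 18 had an unadjusted p below 0.05, and *Lep*, the gene of leptin, passed both limits (log2 fold change 3.74, SE 0.47; limma, adjusted p = 0.0393). Their median log2 fold change was 1.65. The mean log2 value of the list was 8.75, 9.40 and 8.998 in WT hosts and 9.90, 11.52 and 10.76 in knockout hosts, so that it separated the groups and was highest in knockout tumor 2. The summed values were 58198, 72842 and 48134 normalized counts in WT hosts and 66877, 240450 and 144290 in knockout hosts, with *Lpl*, a lipase also made outside fat, the most abundant marker and none at 0 in 3 or more tumors. *Adipoq*, the gene of adiponectin, was at 932, 2067 and 786 normalized counts in WT hosts and at 1691, 9593 and 5412 in knockout hosts. Its groups overlapped at WT tumor 2 and knockout tumor 1. The part of the adipocyte markers in the values of the 9 genes cannot be separated from genotype.

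Members were also set against adipocyte RNA. Per 1000 normalized counts of *Adipoq*, *Ucp1* was at 4.06, 1.51 and 1.29 in WT hosts and at 1.12, 19.0 and 0 in knockout hosts. Knockout tumor 2 was still the highest, and knockout tumor 3, with the next highest *Adipoq*, had no *Ucp1* read. The other genes that peaked in knockout tumor 2 did so less or not at all on this scale. *Cox8b* was at 13.4 there and at 10.4 in WT tumor 3, *Cidea* was highest in knockout tumor 1 at 29.1 beside 14.0, and *Ebf2* was highest in WT tumor 1 at 84.7 beside 11.5. *Adrb3* on this scale was at 76.1, 46.7 and 141 in WT hosts and at 85.9, 37.3 and 30.4 in knockout hosts. Its groups then overlapped, with knockout tumors 2 and 3 below every WT tumor. *Ppargc1a* was at 178, 80.1 and 353 in WT hosts and at 259.8, 31.1 and 92.3 in knockout hosts, and also overlapped. When the mean of the white adipocyte markers was a term of the limma fit, the log2 fold change of *Adrb3* was -0.11 and that of *Ppargc1a* 1.55, neither with an unadjusted p below 0.05. In the same fit *Ucp1* turned to -3.91, *Ebf2* to -1.65 and *Cox8b* to -3.19, the last with an unadjusted p of 0.0489 by limma (adjusted p = 0.599), and the median of the 9 genes to -0.11. This term separates the groups, so it and genotype cannot be told apart.

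Markers of other tissues that express members were examined in the same way. Muscle also expresses *Cox8b* and *Cox7a1*. Skeletal muscle markers had mean log2 values of 4.03, 4.17 and 4.32 in WT hosts and 5.68, 4.39 and 3.75 in knockout hosts, with knockout tumor 1 the highest. Of 15 tested, 2 were higher at an unadjusted p below 0.05 and the median log2 fold change was 0.21. They summed to 1036, 1344 and 941 normalized counts in WT hosts and to 1763, 1937 and 1248 in knockout hosts. The sum was highest in knockout tumor 2, where *Actn3*, the most abundant marker, was at 997, and *Myh2* was at 0 in 3 tumors. Of the 16 markers with a value, 9 were highest in knockout tumor 1 and 3 in knockout tumor 2, namely *Actn3*, *Myl1* at 185 and *Tnnt1* at 575 normalized counts, while *Ckm*, the creatine kinase of muscle, was lowest there at 6.94. Heart muscle markers had a median log2 fold change of -0.26, with 0 of 9 higher and 1 lower at an unadjusted p below 0.05, and summed to 1849, 2492 and 1726 normalized counts in WT hosts and to 1588, 1343 and 1170.3 in knockout hosts, *Mybpc3* being the most abundant. The share of muscle RNA in the values of *Cox8b* and *Cox7a1* was not tested beyond these levels.

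Of the sympathetic nerve markers, *Th* and *Dbh* were at or near 0 in most tumors, while others were well above the limit of detection in all 6. *Slc6a2* was at 32.6 to 114 normalized counts over the 6 tumors, *Stmn2* at 40.4 to 82.9, *Ddc* at 16.5 to 84.7 and *Slc18a2* at 95.8 to 1591. *Th*, the first enzyme of noradrenaline synthesis, was at 0 in WT tumor 2 and knockout tumors 2 and 3, and at no more than 8.13 normalized counts in any tumor. *Dbh*, the enzyme that makes noradrenaline, reached 31.2 normalized counts in knockout tumor 2 and 2.09 in knockout tumor 1, and was at 0 in the other 4 tumors. Neither passed the limit for testing. Of the 5 tested markers none had an unadjusted p below 0.05, and the median log2 fold change was -0.20. The list summed to 318, 341 and 265 normalized counts in WT hosts and to 1777, 410.2 and 219 in knockout hosts, where *Slc18a2*, the vesicular monoamine transporter, made up 1591 in knockout tumor 1.

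The tumors also differed in how much ovary and smooth muscle RNA they held. *Hsd3b1*, a steroid enzyme, was at 5526, 1.07 and 68.1 normalized counts in WT hosts and at 25704, 13.2 and 33.4 in knockout hosts, and the oocyte gene *Zp3* was at 324 in knockout tumor 1, at 17.9 in WT tumor 1 and at no more than 3.74 in the others. The mean log2 value of 12 ovary markers was 7.90, 5.37 and 6.02 in WT hosts and 10.66, 5.56 and 5.53 in knockout hosts. They summed to 23660, 15044 and 7725 normalized counts in WT hosts and to 71303, 11430 and 12486 in knockout hosts, with *Star* the most abundant and *Fshr* and *Zp3* at 0 in at least 3 tumors. Knockout tumor 1 thus stood apart by ovary genes and was also highest in *Dio2* and *Prdm16*. The part of ovary RNA in these values was not tested. Without this tumor *Prdm16* had a log2 fold change of -0.29 and *Dio2* of -1.40, and neither had an unadjusted p below 0.05. Of the 11 ovary markers tested none had an unadjusted p below 0.05, with a median log2 fold change of 0.83. Smooth muscle markers had a median of -1.01, with 3 of 10 lower at an unadjusted p below 0.05, and summed to 88168, 74856 and 53699 normalized counts in WT hosts and to 70509, 33101 and 18677 in knockout hosts, *Acta2* being the most abundant.

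Epithelial markers summed to 71695, 83297 and 77428 normalized counts in WT hosts and to 64077, 59722 and 69998 in knockout hosts. The injected cells were not sequenced on their own, so their share in these values is unknown. *Wt1* was the most abundant marker, none of 10 had an unadjusted p below 0.05 by limma, and the median log2 fold change was -0.32. None of them was at 0 in 3 or more tumors. In 2 of the 10, *Krt8* (log2 fold change -0.43, SE 0.26) and *Krt19* (-0.40, SE 0.22), every knockout tumor was below every WT tumor. No epithelial marker showed the reverse, and 5.33% of all tested genes were below in this way. Markers of adipose stromal progenitors, the cells from which beige adipocytes can form, had 3 of 10 higher and 1 lower at an unadjusted p below 0.05 and a median of 0.55. The 3 higher were *Pdgfra*, *Dlk1* and *Zfp423*, and *Icam1* was lower, and the list summed to 16255 to 21757 normalized counts with *Ly6a* the most abundant. Liver and kidney markers summed to no more than 519 normalized counts, with 0 of 6 past an unadjusted p of 0.05, a median of -0.070, *Lrp2* the most abundant and *Fgb* at 0 in every knockout tumor.

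**Figure D3:**
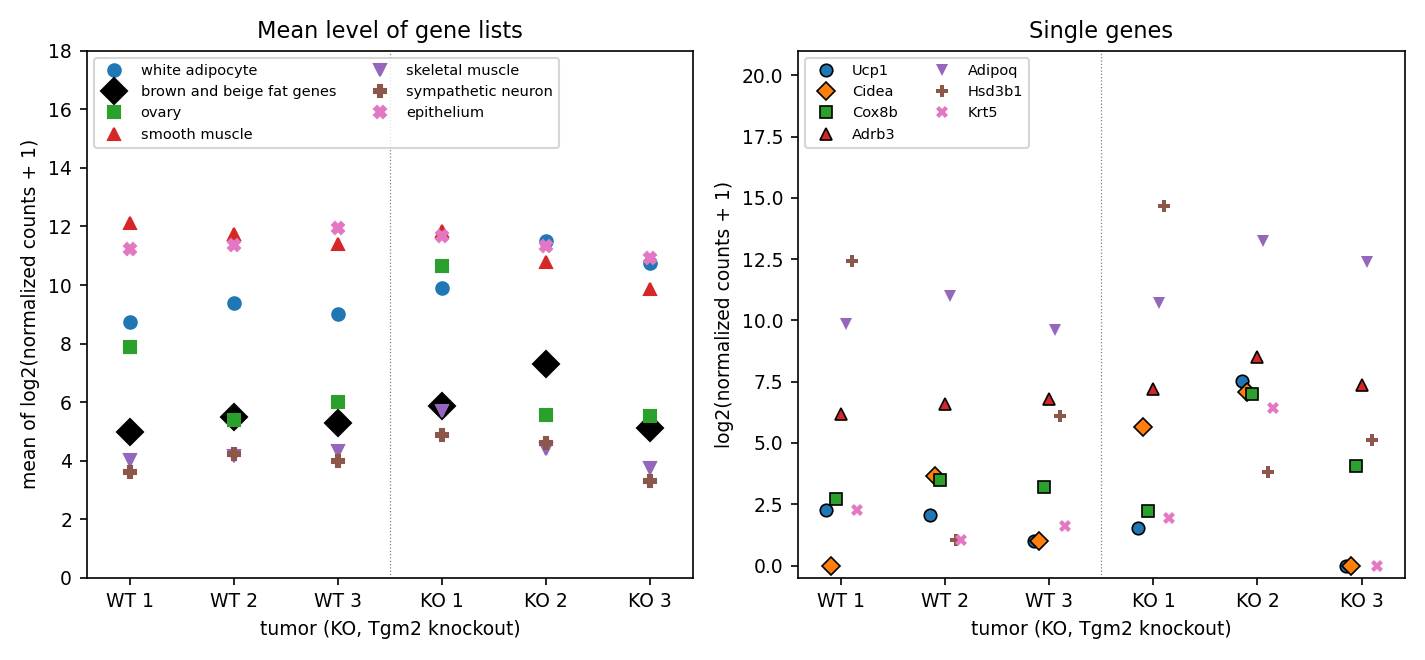
The left panel plots the mean of log2(normalized counts + 1) of each gene list in each of the 6 tumors (WT 1 to 3 and *Tgm2* knockout, KO, 1 to 3), and the right panel single genes on the same scale, with outlined symbols for members. The white adipocyte list runs from 8.75 to 9.40 in WT and from 9.90 to 11.52 in knockout tumors, the ovary list peaks at 10.66 in knockout tumor 1, and *Ucp1*, *Cidea*, *Cox8b* and *Krt5* peak in knockout tumor 2.

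The wider thermogenic program was described with 6 lists of other genes, 107 in all, of which 102 were tested. None of the 102 passed an adjusted p of 0.05. At an unadjusted p below 0.05 by limma, 13 were higher and 0 lower in knockout hosts, and in 18 every knockout tumor was above every WT tumor, with 0 the other way. The 13 are 12.7% and the 18 are 17.6% of the tested genes, beside 3.4% and 5.18% of all tested genes, and the median log2 fold change was 0.14. Some of the 13, such as *Pparg* and *Cebpa*, are shared with white adipocytes. By list, 5 of the 13 were lipid genes, 4 regulators, 3 signal genes and 1 a subtype marker. The mitochondrial and *Ucp1*-independent lists held 0. Over the alternative settings 10 to 15 were higher and 0 to 4 lower, the 4 with the white adipocyte markers as a term.

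Among 20 other regulators 4 were higher at an unadjusted p below 0.05, and the median log2 fold change was 0.38. *Irf4*, which works with PGC-1α in brown fat and is also a regulator of plasma cells and other lymphocytes, was at 106, 35.6 and 95.6 normalized counts in WT hosts and at 499, 310.5 and 575 in knockout hosts, without overlap (log2 fold change 2.63, SE 0.50; limma, adjusted p = 0.264). *Pparg*, the master regulator of all adipocytes, was at 142, 131 and 157 in WT hosts and at 368, 557 and 276 in knockout hosts, also without overlap (log2 fold change 1.42, SE 0.35; limma, adjusted p = 0.560). *Cebpa*, likewise shared by white and brown cells, and *Zbtb16* were the other 2, and were named after their values were seen. The most abundant per length, *Cebpb* and the thyroid hormone receptor gene *Thra*, had log2 fold changes of -0.059 (SE 0.25) and 0.35 (SE 0.20).

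Among 20 signal genes 3 were higher at an unadjusted p below 0.05, with a median log2 fold change of 0.15. *Prkar2b*, the protein kinase A subunit abundant in fat, was at 1028, 935 and 456 normalized counts in WT hosts and at 3706, 1999 and 2135 in knockout hosts (log2 fold change 1.72, SE 0.36; limma, adjusted p = 0.373). *Npr3*, the clearance receptor for natriuretic peptides, was at 159, 208 and 177 in WT hosts and at 901, 478 and 295 in knockout hosts (log2 fold change 1.48, SE 0.42; limma, adjusted p = 0.649). Knockout tumor 1 was the highest for both. The third was *Pde3b*, the phosphodiesterase through which insulin lowers cyclic AMP. *Gnas*, the stimulatory G protein gene, and *Npr1*, the signaling receptor for natriuretic peptides, were the most abundant per length and had log2 fold changes of 0.23 (SE 0.27) and -0.14 (SE 0.25). *Adrb1*, the β1-adrenergic receptor gene, had a log2 fold change of -0.43 (SE 0.60), and its groups overlapped.

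Mitochondrial genes gave no call: of 17 tested none had an unadjusted p below 0.05, none separated the groups, and the median log2 fold change was 0.073. *Cox8a*, the widely expressed relative of *Cox8b*, was at 10125, 15213 and 7990 normalized counts in WT hosts and at 8518, 14306 and 11344 in knockout hosts (log2 fold change 0.056, SE 0.30). It was highest in WT tumor 2. *Cox7a2*, the widely expressed relative of *Cox7a1*, had a log2 fold change of -0.27 (SE 0.24), and *Cox4i1*, also among the most abundant per length, -0.27 (SE 0.31). Of the relatives of *Ucp1*, *Ucp2*, a carrier abundant in immune cells, was at 22314, 10991 and 11124 normalized counts in WT hosts and at 14951, 21403 and 24902 in knockout hosts (log2 fold change 0.52, SE 0.35). *Ucp3*, the form of skeletal muscle and brown fat, was at 22.2, 12.5 and 9.13 in WT hosts and at 30.6, 44.1 and 18.9 in knockout hosts. It had a log2 fold change of 1.05 (SE 0.65; limma, adjusted p = 0.892) and was highest in knockout tumor 2. *Cpt2*, of the carnitine shuttle, had the smallest p of this list, with a log2 fold change of 0.37 (SE 0.23).

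Among 20 other lipid genes 5 were higher at an unadjusted p below 0.05, 7 separated the groups, and the median log2 fold change was 0.24. *Acsl1*, which activates fatty acids, was at 878, 843 and 673 normalized counts in WT hosts and at 1506, 4853 and 2930 in knockout hosts (log2 fold change 1.81, SE 0.39; limma, adjusted p = 0.387). *Plin5*, a droplet protein of oxidative tissues, was at 4.73, 7.29 and 11.2 in WT hosts and at 54.9, 65.7 and 21.6 in knockout hosts (log2 fold change 2.40, SE 0.70; limma, adjusted p = 0.649). The other 3 were *Pank1*, *Mgll* and *Elovl6*. *Elovl6*, a relative of *Elovl3*, was at 783, 779 and 787 in WT hosts and at 1194, 1006 and 1061 in knockout hosts, with a log2 fold change of 0.47 (SE 0.19; limma, adjusted p = 0.827). The most abundant per length, *Plin2* and *Elovl5*, had log2 fold changes of 0.24 (SE 0.40) and 0.34 (SE 0.19). *Cidec*, the relative of *Cidea* that white adipocytes carry, was at 582, 1085 and 367 in WT hosts and at 1770, 7132 and 4051 in knockout hosts (log2 fold change 2.59, SE 0.54; limma, adjusted p = 0.350). Unlike *Cidea*, it was high in knockout tumor 3.

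Another list held markers that separate brown, beige and white fat cells. Of 15 tested 1 was higher and 0 lower at an unadjusted p below 0.05, 6 had a fold change above 0, and the median log2 fold change was -0.16. The 1 was *Slc36a2*, an amino acid transporter proposed as a brown and beige surface marker, which was at 85.7, 103 and 85.04 normalized counts in WT hosts and at 129, 543 and 445 in knockout hosts (log2 fold change 1.78, SE 0.55; limma, adjusted p = 0.698). *S100b* had a log2 fold change of 0.92 (SE 0.49). *Epsti1* and *Mpzl2*, the most abundant per length, were at -0.11 (SE 0.40) and -0.67 (SE 0.36), and *Lhx8*, a brown fat marker that oocytes also express, was at 2.71 normalized counts in WT tumor 1, at 20.6 in knockout tumor 1 and at 0 in the other 4 tumors. The oocyte genes *Gdf9* and *Zp3* were also highest in these 2 tumors. *Zic1*, the classical brown fat marker, was not analysed here.

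Genes of heat production without UCP1, most of which act in creatine or calcium cycling, gave 0 of 10 at an unadjusted p below 0.05 and a median log2 fold change of 0.24. *Atp2a2*, the calcium pump, was at 10562, 8443 and 8144 normalized counts in WT hosts and at 12348, 10790 and 12969 in knockout hosts, without overlap (log2 fold change 0.42, SE 0.21; limma, adjusted p = 0.887). *Pm20d1*, whose enzyme makes N-acyl amino acids that can uncouple mitochondria, had a log2 fold change of 1.69 (SE 0.79) with values of 4.28 to 44.9 normalized counts over the 6 tumors, and *Gamt*, of creatine synthesis, 0.18 (SE 0.30). *Ebf1*, the relative of *Ebf2* that acts in fat and in B cells, had a log2 fold change of 0.78 (SE 0.36; limma, adjusted p = 0.880).

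**Figure D4:**
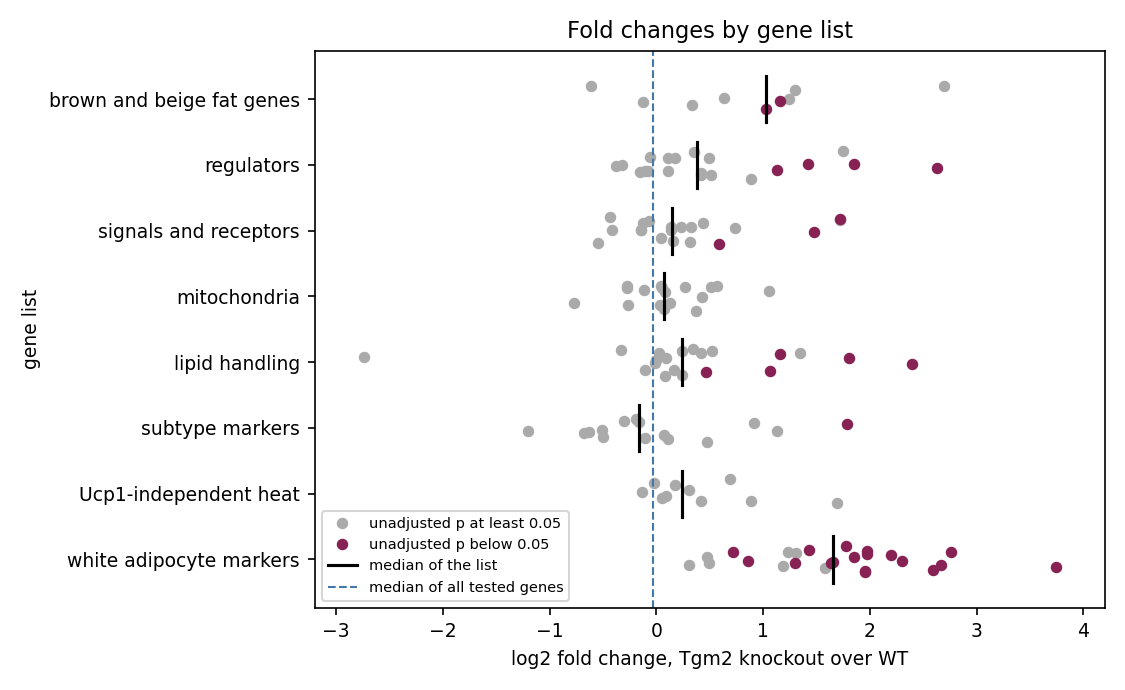
Each point is a tested gene, placed by its log2 fold change (*Tgm2* knockout over WT, horizontal axis) in the row of its list, with unadjusted p below 0.05 in dark red; black bars mark list medians and the dashed line the median of all tested genes, -0.027. The medians run from -0.16 for the subtype markers to 1.03 for the brown and beige fat genes and 1.65 for the white adipocyte markers.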

How the data were processed

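Bulk RNA from 6 tumors, 3 WT and 3 *Tgm2* knockout, was sequenced after polyA enrichment as paired reads. The authors quantified transcripts with kallisto 0.46.2 (GRCm38, per the submitters' processing notes), summed them to genes, removed genes with low expression and divided by DESeq2 size factors. The limit for low expression is not given in the sources used here. What the authors deposited is thus a signal, in normalized counts. The table is labelled TPM, but its columns sum to 32316613 to 37717165, so the values are not TPM, and no count model was fitted, since counts in whole reads came back only where a gene has 1 transcript. The tests planned for normalized values were kept.

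Fold changes are on the log2(value + 1) scale, so those of low genes depend on the pseudocount, and a gene was tested where 3 or more tumors had a value of 1 or more. Limma 3.58.1 (R 4.3.3) was fitted to all 6 tumors without a covariate, with empirical Bayes moderation and a variance trend. P-values are two-sided and were adjusted by Benjamini-Hochberg over 19667 genes, at limits of 0.05 for adjusted p and 1 for log2 fold change. Exact permutation tests (Python 3.11.15, scipy 1.17.1) cannot give a p below 0.1 with 3 tumors against 3. The models were tested on simulated data, but the outcome is not reported here, so no result rests on it. Gene positions and transcript lengths come from GENCODE M21, matched by symbol (19037 of 20076 genes), and start regions from RefSeq on GRCm38.p6, which held 6 of the 9 members. The labels give each tumor as a separate mouse only through its replicate number, so p-values measure the spread between these tumors.

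The members, the gene lists and the tests were chosen with earlier results of these data known. The genes named are *Tgm2*, the members, the 2 genes of smallest p and the 2 of highest level per length in each of 6 lists of thermogenic genes, the most abundant gene and the markers at 0 of each of the 9 cell type lists, relatives of the members, and the 8 genes most like *Ucp1*. 1 gene that this rule names is not reported here. Other genes were named after their values were seen. Alternatives changed the pseudocount, filter, scaling, variance trend and tumor weights, added a replicate block or a white adipocyte covariate, and left out each tumor. The counts of the 6 lists under these settings were added after seeing the data. *Elovl3* was not analysed here.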

Additional observations from a re-analysis of the deposited data

How the results depend on the processing

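None of the 9 brown and beige fat genes passed the adjusted limits in any of the 16 alternative settings. Of all genes, 20 were higher and 0 lower; with the replicate numbers as a block 5 were higher, without the variance trend 4, with the white adipocyte covariate 0, and with 1 tumor left out 2 to 15, with 0 to 1 lower. Whether the numbers pair the tumors is not known. Deviations of same-numbered tumors from their group means correlated at -0.20, 0.28 and -0.31, and those of differently numbered tumors at -0.23 to 0.36. With 3 tumors per group, whose deviations sum to 0, these values cannot decide it. The block left the members' 2 unadjusted calls in place. These 2 calls (*Ppargc1a* and *Adrb3*) became 1 with quantile normalization, 0 with the covariate, which gave 1 lower call, *Cox8b*, and with 1 tumor left out 0 to 2 members were called: none without WT tumor 1 or WT tumor 2, *Ppargc1a* without knockout tumor 2, *Adrb3* and *Cox8b* without knockout tumor 1, *Adrb3* and *Cidea* without knockout tumor 3, and *Ppargc1a* and *Adrb3* without WT tumor 3. The median log2 fold change of the members, 1.03, was -0.11 with the covariate, 0.64 with a pseudocount of 0.1, which gave *Ucp1* 0.46, and 0.015 to 1.40 with 1 tumor left out.

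The covariate separates the groups, so it and genotype cannot be told apart. It turned *Adrb3* to -0.11, *Cox8b* to -3.19, *Dio2* to 0.21, *Ebf2* to -1.65 and *Ucp1* to -3.91, and gave 0.28 for *Cidea*, 2.71 for *Prdm16*, -1.15 for *Cox7a1* and 1.55 for *Ppargc1a*. Tumor weights turned *Cox7a1* to 0.036. With 1 tumor left out, *Ucp1* ranged from -1.005 to 2.76, *Cidea* from 1.28 to 4.82, *Ppargc1a* from 0.88 to 1.28, *Dio2* from -1.40 to 0.19, *Prdm16* from -0.35 to 0.95, *Adrb3* from 0.75 to 1.40, *Cox8b* from 0.015 to 2.40, *Cox7a1* from -0.54 to 0.13 and *Ebf2* from -0.0077 to 1.56. The cause was not tested. *Ucp1* has no value with a filter of at least 10 in 3 tumors. With *Ucp1* at 0 to 4 reads in 5 tumors, its differences among these lie near the limit of counting.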
